A study of Mus musculus with 14 samples.

Results

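In single-cell plates sorted from mouse melanomas for cDC1, the type 1 conventional dendritic cells, 86 of 555 cells (15.5%) carried transcripts of genes chosen to mark fibroblasts and tumour cells. A cell was a member if it had at least 1 UMI (unique molecular identifier, a tag that counts transcript molecules) in at least 3 of 10 genes, namely Col1a1, Col1a2, Col3a1, Dcn, Sparc, Tfap2b, Nradd, Tm4sf1, Nr2f2 and Cavin3. The 66 members with 3 or more of Col1a1, Col1a2, Col3a1 and Dcn were called fibroblast-like. The other 20 had the working name tumour-like and are called the remaining members here, because that name held for some of them only. The 469 other cells served as the comparison. Members were chosen on their own counts, so gene differences between these sets of cells are descriptions with no test.

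Each of the 14 samples was 1 plate of single cells from 1 tumour, grown in 1 female mouse after injection of YUMM1.7 cells under the skin. The control groups were Irf1_FF (4 plates, 165 cells) and Ikbkb_FF (1 plate, 34 cells), and the deleted groups Irf1_dXCR1 (5 plates, 223 cells) and Ikbkb_dXCR1 (4 plates, 133 cells). Mice were 6 weeks old, except those of the Ikbkb_FF plate and of Ikbkb_dXCR1 replicates 1 and 2, which were 8 weeks old. The labels name the genes Irf1 and Ikbkb and the receptor XCR1 in the genotypes, with no Cre line, and put all Irf1 plates in 1 experiment and all Ikbkb plates in another. Replicate numbers follow the accession order and pair no plates.

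As background, fibroblasts build the collagen scaffold of a tumour: fibrillar collagen chains are hydroxylated and folded in the secretory pathway with chaperones such as Serpinh1, trimmed outside the cell, and remodelled by metalloproteinases. Fibroblasts of tumours also release chemokines that draw in leukocytes. YUMM1.7 is a mouse melanoma line with an activating Braf mutation and inactivated Cdkn2a, which in culture keeps few pigment genes. A cDC1 is a leukocyte that cross-presents antigen, and it carries CD45, CD11c, MHC class II and XCR1 at its surface.

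Members were concentrated in few plates. Irf1_FF replicates 1 to 4 held 25 of 43, 0 of 40, 2 of 31 and 12 of 51 cells as members. Irf1_dXCR1 replicates 1 to 5 held 7 of 59, 5 of 37, 2 of 29, 9 of 49 and 18 of 49. The Ikbkb_FF plate held 0 of 34, and Ikbkb_dXCR1 replicates 1 to 4 held 0 of 18, 1 of 26, 1 of 38 and 4 of 51. Irf1_FF replicate 1 (58.1% of its cells, exact binomial 95% interval 42.1 to 73.0%), Irf1_dXCR1 replicate 5 (36.7%, 23.4 to 51.7%) and Irf1_FF replicate 4 (23.5%, 12.8 to 37.5%) together held 55 of the 86 members, and 3 plates held none. The intervals cover counting error only. Fibroblast-like cells were found in 11 plates and remaining members in 8. The Irf1 plates held 80 of the 86 members among 388 cells and the Ikbkb plates 6 among 167. Since each experiment used its own gene, experiment and gene cannot be told apart.

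**Figure D1:**
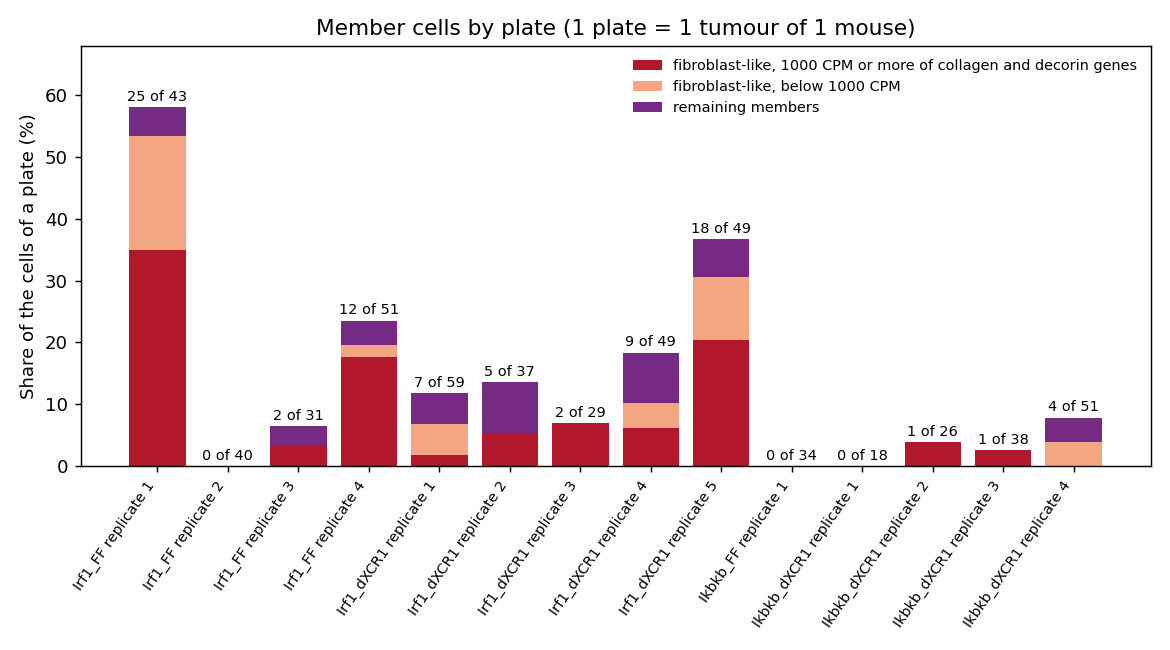
Share of the cells of each plate that are members, stacked by kind of member, with the number of members and of cells above each bar. Irf1_FF replicate 1 stands highest at 58.1%, and 3 plates have no member.

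The Irf1 groups overlapped in the share of members. Members made up 22.0 ± 26.0% of cells in the Irf1_FF plates (SD, n = 4; lowest 0%, highest 58.1%) and 17.5 ± 11.5% in the Irf1_dXCR1 plates (n = 5; lowest 6.90%, highest 36.7%). The difference was -4.55 percentage points (two-sided exact permutation p = 0.762; adjusted over 3 tests 0.762). Fibroblast-like cells made up 19.1 ± 24.5% and 11.98 ± 10.6% (exact permutation p = 0.627, adjusted 0.762). Remaining members made up 2.95 ± 2.05% and 5.50 ± 3.34% (exact permutation p = 0.222, adjusted 0.667). None of the 3 differences was larger than the spread between plates; the smallest p that the exact permutation test could give over these 9 plates was 0.00794. Without Irf1_FF replicate 1 the member difference turned to 7.48 points and the fibroblast-like one to 4.37 points.

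The 66 fibroblast-like cells fell in 2 sets by their level of the 4 collagen and decorin genes. None of the 66 lay between 439 and 1961 CPM (the share of a cell's UMIs scaled to a total of 1000000, summed over the 4 genes). In 45 cells, called high-collagen here, the summed level ran from 1961 to 69563 CPM with a median of 16470. In the other 21, called trace-collagen, it ran from 7.12 to 439 CPM with a median of 39.3. Remaining members, which the rule had set apart, did lie between the 2 sets, among them cells at 781, 1039 and 1622 CPM. The division at 1000 CPM was chosen after the values were seen and is used for description only. High-collagen cells came from 10 plates and trace-collagen cells from 6.

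The trace-collagen cells carried leukocyte transcripts and the high-collagen cells few. Of 16 leukocyte genes, trace-collagen cells had a median of 11 with a UMI, high-collagen cells 2 and other cells 9. Cd74, the MHC class II invariant chain, had a median of 4656 CPM in trace-collagen, 23.9 CPM in high-collagen and 5380 CPM in other cells. Ptprc, which encodes CD45, was found in 16 of 21, 3 of 45 and 286 of 469 cells. Relative to other cells, 3.1% of 20935 genes were found in a share of trace-collagen cells at least 20 points higher and 0.00478% in a share at least 20 points lower. The fibroblast-like name had the support of the other fibroblast genes in the high-collagen cells, and not in the trace-collagen cells, where 1 of 20 listed fibroblast genes stood at least 20 points above other cells.

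Collagen UMIs in other cells were most frequent in the plates with most fibroblast-like cells. In the 3 plates with 10 or more fibroblast-like cells, 42 of 88 other cells had a UMI of Col1a1, Col1a2, Col3a1 or Dcn, and the share per plate was 72.2%, 54.8% and 30.8%. In the 8 plates with 1 to 9 it ran from 3.85 to 29.6%, and in the 3 plates with none from 11.1 to 22.5%. The former 3 plates also held 14 of the 21 trace-collagen cells. The summed level over all other cells did not follow the same order, at 3.36 to 27.2 CPM in those 3 plates and 28.1 to 76.5 CPM in the plates with no fibroblast-like cell. Transfer of RNA or of barcodes between wells was not tested. All 94 well barcodes were used in more than 1 plate, and no cell name occurred more than once.

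**Figure D2:**
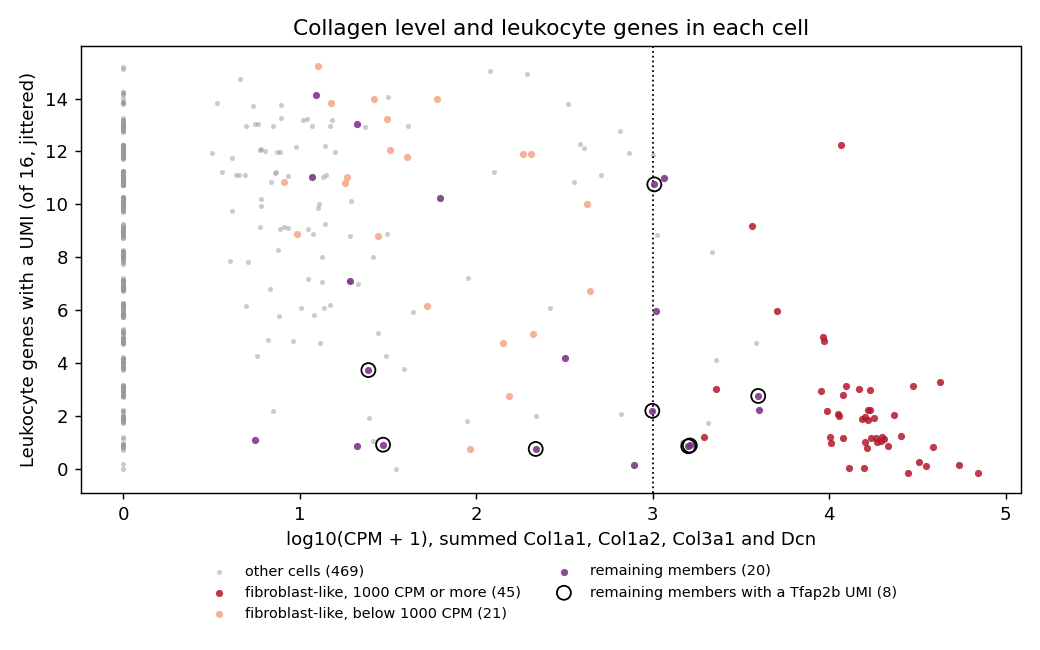
Each point is a cell, placed by its summed level of Col1a1, Col1a2, Col3a1 and Dcn (log10 of CPM + 1) and by how many of 16 leukocyte genes had a UMI; the dotted line marks 1000 CPM. The 45 high-collagen cells lie at the lower right with a median of 2 leukocyte genes, and the 21 trace-collagen cells lie among the other cells with a median of 11.

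At the edge of the rule, the 37 cells with 2 of the 10 genes had a median of 26.6 CPM of the 10 genes together, and the 18 members with exactly 3 had 39.2 CPM. Levels ran from 6.07 to 5339 CPM with 2 genes and from 7.12 to 4660 CPM with 3, so each side held low and high levels. Both sets carried leukocyte genes (medians of 9 and 10.5 of 16). With at least 2 UMIs per gene 66 cells were members, with 4 of the 10 genes 68, and without the members that had a Ptprc UMI 58.

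The collagen genes themselves, which the rule used, stood as follows in summed fibroblast-like cells. Col1a1 (chromosome 11, 94936224 to 94953042), the main chain of type I collagen, had 2491 and 4924 CPM in Irf1_FF replicates 1 and 4. It had 17.9, 1882 and 2341 CPM in Irf1_dXCR1 replicates 1, 4 and 5. Irf1_dXCR1 replicate 1, the low plate, held 1 high-collagen cell among its 4 fibroblast-like cells. Over high-collagen cells alone, the 4 plates with at least 3 of them ran from 2994 to 5113 CPM for Col1a1, from 3278 to 4412 CPM for Col3a1, a chain of type III collagen, and from 2840 to 4006 CPM for Dcn, the collagen-binding proteoglycan decorin. These levels are understated. A count cannot pass the number of different 5-base UMIs, and 27 of the 45 high-collagen cells had 900 or more UMIs of Col1a1.

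Genes for other matrix proteins were found together in the high-collagen cells. All 23 listed genes of fibrillar and basement membrane matrix were found in a share of high-collagen cells at least 20 points above that in other cells, beside 6.67% of 20935 genes. Their median share was 75.6% of high-collagen and 1.07% of other cells. The collagen VI chains Col6a1, Col6a2 and Col6a3 were each found in 93.3% of high-collagen cells and in 1.71%, 1.49% and 2.13% of other cells. Fn1, which encodes fibronectin, was found in 88.9% and 2.35%, and had 901 to 1498 CPM in the 4 plates. In the fibroblast-like set as a whole, trace-collagen cells included, 20 of the 23 passed that mark, beside 4.51% of all genes, and 10 of 16 leukocyte genes stood as far below, beside 0.401%.

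Genes that process and remodel collagen followed the same pattern. Of 16 collagen processing genes 14 stood at least 20 points higher in high-collagen cells, beside 6.67% of all genes. Serpinh1, the collagen chaperone HSP47, was found in 91.1% of them and 1.49% of other cells, and Pcolce, an enhancer of procollagen trimming, in 86.7% and 2.35%. P4hb (86.7% and 40.3%) and Ppib (73.3% and 53.7%), which serve the folding of many secreted proteins, were common in other cells as well. Of 14 matrix proteases and inhibitors 13 stood higher, beside the same 6.67%. Mmp2, a gelatinase, was found in 88.9% and 0.640% of cells, its activator Mmp14 in 86.7% and 6.61%, the cathepsin gene Ctsl in 91.1% and 8.32%, and the inhibitor gene Timp2 in 80.0% and 0.853%.

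Most fibroblast identity genes were more frequent in high-collagen cells than in other cells. Of 20 listed, 17 stood at least 20 points higher than in other cells, beside 6.67% of all genes. The median share over the 20 was 70.0% against 0.213%. Postn, which encodes the matrix protein periostin, was found in 97.8% of high-collagen cells, 9.52% of trace-collagen cells, 10.0% of remaining members and 1.92% of other cells. It had 2129, 3041, 2294 and 2724 CPM over the high-collagen cells of Irf1_FF replicates 1 and 4 and Irf1_dXCR1 replicates 4 and 5. No plate's other cells exceeded 15.1 CPM. The limit on counts holds for Postn as well, and its part in the range of these plates was not tested. Fbln2 (fibulin 2) was found in 91.1% of high-collagen cells and 0.426% of other cells. Serpinf1, a secreted serpin, was found in 91.1% and 15.4%, and Gsn, the actin-severing gelsolin, in 84.4% and 43.3%. Among members of the list named after their values were seen, Pdgfra, the PDGF receptor gene used to mark fibroblasts, was found in 75.6% and 0.213%, Lum in 88.9% and 0.640%, and Thy1 in 64.4% and 0.640%.

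Contractile genes were split. Of 11 measured, 6 stood at least 20 points higher in high-collagen cells (beside 6.67% of all genes) and 1 lower (beside 1.2%). Cald1 (caldesmon) was found in 86.7% of high-collagen and 2.13% of other cells and Tpm1 (a tropomyosin) in 80.0% and 20.9%. Cnn2 was found in 33.3% and 58.4%. Acta2 and Tagln, the smooth muscle actin and transgelin genes that mark myofibroblasts, named after their values were seen, were found in 8 and 2 of the 45 high-collagen cells.

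Chemokine genes were frequent in the high-collagen cells. Of 15 listed chemokine and cytokine genes 9 stood at least 20 points higher than in other cells, beside 6.67% of all genes. Ccl2 and Ccl7, which draw monocytes, were found in 64.4% and 77.8% of high-collagen cells, against 9.38% and 8.96% of other cells. Cxcl12, the ligand of CXCR4, was found in 77.8% and 0.213%, and Ccl11, an eosinophil attractant, in 71.1% and 1.07%. Over the high-collagen cells of the 4 plates Cxcl12 had 698 to 1388 CPM and Ccl7 1327 to 2077 CPM. Of 16 genes of TGF-β, PDGF and FGF signalling 7 stood higher, beside the same 6.67%. Among them were the receptor genes Tgfbr2 (77.8% and 4.69%) and Fgfr1 (64.4% and 4.26%) and the secreted Igfbp7 (73.3% and 0.213%). Tgfbi did not stand higher (42.2% and 40.5%).

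Leukocyte and dendritic cell genes were low in the high-collagen cells. Of 16 leukocyte genes 12 stood at least 20 points lower than in other cells, as did 10 of 14 cDC1 genes and 5 of 7 MHC class II genes, beside 1.2% of all genes. Irf8, the transcription factor that cDC1 depend on, was found in 8.89% and 75.7% of cells, and Lcp1, an actin-bundling protein of leukocytes, in 13.3% and 82.3%. Cd74 was found in 93.3% of high-collagen cells, close to the 99.6% of other cells, and the class II gene H2-Ab1 in 84.4% and 97.2%. Their levels were lower. H2-Ab1 had 95.0 to 452 CPM over the high-collagen cells of the 4 plates and 3116 to 5824 CPM over the other cells of the 14 plates, and the ranges did not overlap. Cd74 had 15.3 to 434 CPM and 3506 to 5876 CPM.

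Markers of further cell types were rare. Of the pericyte list Ndufa4l2 was found in 22.2% of high-collagen cells, while Rgs5, Kcnj8 and Abcc9 were in at most 6.67%. Endothelial genes were rare except Ecscr (62.2% of high-collagen cells, 0.213% of other cells) and Eng (35.6% and 2.99%); Pecam1, which encodes CD31, was found in 4.44% and 5.54%. The keratinocyte gene Krt10 was found in 28.9% and 1.28%, with Epcam at 0 of 45 and Perp and Sfn at 0 of 86 members, which allows a share of members with a UMI of up to 3.49%. Cd3d, Trac, Ncr1, Cd79a and Ms4a1, markers of T, NK and B cells, were each at 0 of 45 high-collagen cells, S100a8 in 1 and S100a9 in 2. Macrophage genes were mixed: Spp1 (osteopontin) was found in 51.1% and 11.5%, while Lyz2 stood at 15.6% and 39.4% and Cd68 at 20.0% and 48.6%.

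**Figure D3:**
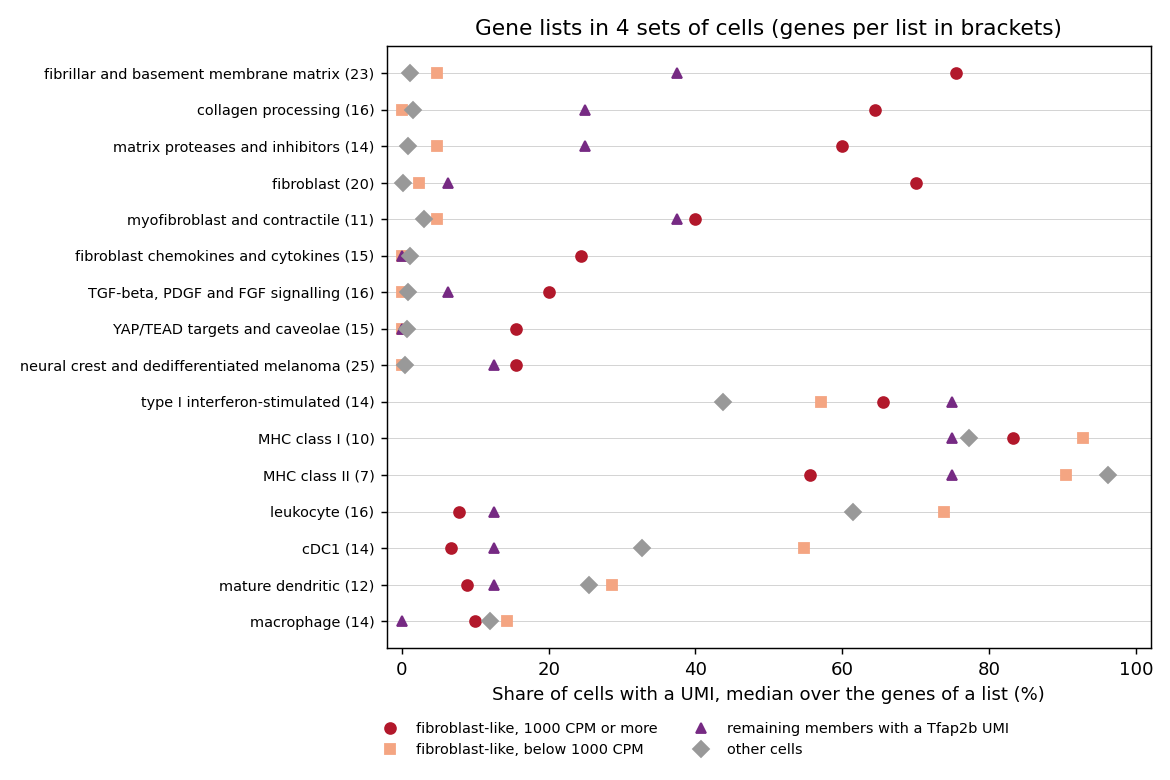
Each symbol is the median, over the genes of a list, of the share of cells with a UMI, in high-collagen, trace-collagen, Tfap2b-positive remaining and other cells. For the fibrillar and basement membrane matrix list the medians are 75.6%, 4.76%, 37.5% and 1.07%, and for the leukocyte list 7.78%, 73.8%, 12.5% and 61.4%.

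The 20 remaining members were mixed. Of the 5 genes of the rule that code for no matrix protein (Tfap2b, Nradd, Tm4sf1, Nr2f2 and Cavin3), 12 cells had at least 2, 1 had 1 and 7 had none. The 12 came from 5 plates, 3 cells from Irf1_FF and 9 from Irf1_dXCR1, and had a median of 1 of 16 leukocyte genes (range 0 to 11). The 7 with none, members through Sparc and collagen or decorin UMIs, had a median of 11 leukocyte genes (range 2 to 14). Sparc, which encodes the matrix protein osteonectin, was found in 19 of the 20 (95.0%), against 4.90% of other cells.

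Tfap2b (chromosome 1, 19208914 to 19238576), a transcription factor of neural crest and kidney development, was found in 8 of the 20, in 4 plates. Its UMI counts in these 8 cells were 186, 87 and 50 in Irf1_dXCR1 replicate 4, 141 and 22 in Irf1_dXCR1 replicate 1, 70 and 239 in Irf1_dXCR1 replicate 2, and 22 in Irf1_FF replicate 4. Over the remaining members of the 4 plates with at least 3 of them, all Irf1_dXCR1, Tfap2b had 302, 664, 316 and 0 CPM in replicates 1, 2, 4 and 5. Over other cells it was at 0 in all 14 plates, and 2 high-collagen cells had it. Of the other genes of the rule, Tm4sf1, a membrane protein of the transmembrane 4 superfamily, had 295, 878, 508 and 0 CPM in the same 4 sets of cells, and Nr2f2, a nuclear receptor gene, 0, 908, 206 and 0 CPM. Replicate 5 was at 0 for all 3 genes and replicate 1 for Nr2f2; the 3 remaining members of replicate 5 had none of the 5 genes.

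Genes that the rule did not use set the Tfap2b-positive cells apart in counts of single cells. Cdkn2a (chromosome 4, 89274471 to 89294653), which encodes the cell cycle inhibitors p16 and p19 and is inactivated in YUMM1.7, had a UMI in 5 of the 8 Tfap2b-positive cells. It had none in the other 12 remaining members and in the 66 fibroblast-like cells, and 1 of 469 other cells had one. The 5 cells came from 4 plates. The UMIs tag the 5′ end of a transcript, so they do not show whether the coding part was intact. Pax3, a neural crest and melanocyte transcription factor, named after its values were seen, had a UMI in 3 of the 8, all from Irf1_dXCR1 replicate 4, and in 1 fibroblast-like and 1 other cell. Of the 8, 6 had Cdkn2a or Pax3. Of 14 listed pigment cell genes 7 are columns of the table. Kit, a growth factor receptor of melanocytes and some leukocytes, was found in 10 of 66 fibroblast-like cells, 4 of 20 remaining members, none of them Tfap2b-positive, and 103 of 469 other cells. Mlana was found in 2 fibroblast-like cells and in none of the remaining members, and Mitf in none of the 20.

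The Tfap2b-positive cells shared part of the matrix programme with high-collagen cells. Of 23 matrix genes 14 stood at least 20 points above other cells, beside 7.97% of all genes. Fn1 and Col6a3 were each found in 62.5% of them. Serpinh1 and Pcolce were each found in 87.5%, Mmp14 in 6 of the 8 and Tpm1 in all 8. Of the 20 fibroblast genes 6 stood higher, Gsn being found in 6 of 8 and Serpinf1 in 5 of 8, and of the 15 chemokine and cytokine genes 4, Ccl2 and Ccl7 being found in 3 of 8 each. Postn, Fbln2, Cxcl12 and Ccl11 were at 0 of 8, where counting 8 cells allows a share of up to 37.5%. Of 25 neural crest and dedifferentiated melanoma genes 9 stood higher, with Id3, an inhibitor of differentiation, in 7 of 8 and Prrx1, a mesenchymal transcription factor, in 6 of 8, against 4.48% and 0.853% of other cells. Prrx1 and Id3 were also found in 62.2% and 46.7% of high-collagen cells. Of 15 YAP/TEAD target and caveolae genes 5 stood higher, but the median share over the list was 0% against 0.640% of other cells. Of the caveolae genes, Cav1 was found in 62.5% of Tfap2b-positive, 40.0% of high-collagen and 0.640% of other cells. Leukocyte genes were low (10 of 16 at least 20 points lower, beside 1.71% of all genes), but the cells differed in Cd74. It was at 9.08 to 34.6 CPM in 5 of the 8 and at 1630, 2408 and 3303 CPM in the other 3, which had 1, 11 and 4 of the 16 leukocyte genes.

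**Figure D4:**
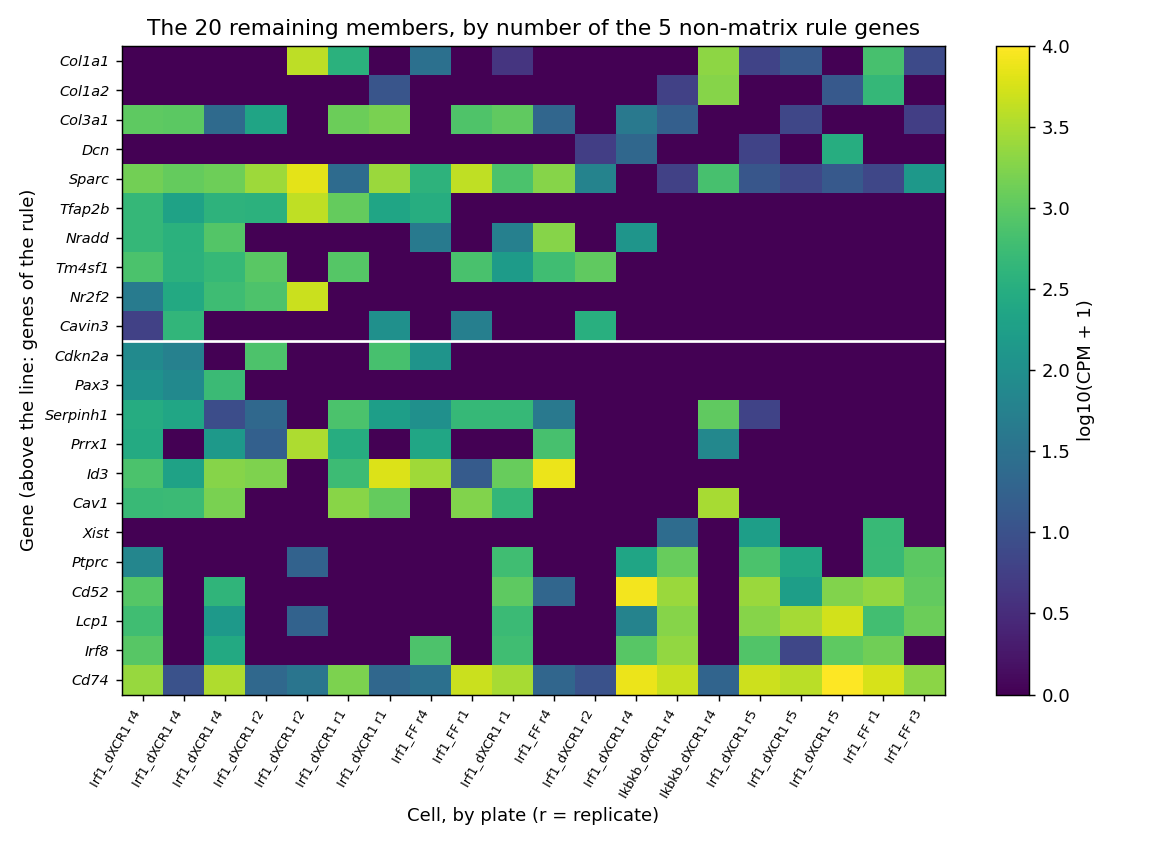
Level of 22 genes (log10 of CPM + 1) in each of the 20 remaining members, ordered by how many of Tfap2b, Nradd, Tm4sf1, Nr2f2 and Cavin3 had a UMI, with the plate under each column. The 8 Tfap2b-positive cells stand at the left and hold all 5 Cdkn2a-positive cells, and the 7 cells with none of the 5 genes stand at the right, most of them with Cd52, Lcp1 and Cd74.

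As 1 set, the 20 remaining members stood at least 20 points above other cells for 8 of 23 matrix genes (beside 2.37% of all genes), 5 of 25 neural crest and dedifferentiated melanoma genes and 5 of 15 YAP/TEAD target and caveolae genes. They stood as far below for 8 of 16 leukocyte genes (beside 0.439%). Without Irf1_dXCR1 replicate 4 the matrix count was 4 and the YAP/TEAD and caveolae count 3. Among the 12 genes outside the lists that stood furthest above them in fibroblast-like cells were Gpx3, a secreted glutathione peroxidase (66.7% of fibroblast-like cells, 5.00% of remaining members), Serping1, the C1 inhibitor of complement (71.2% and 10.0%), Aspn, a small matrix proteoglycan (56.1% and 0 of 20), and Sod3, extracellular superoxide dismutase (53.0% and 0 of 20). A count of 0 of 20 allows a share of up to 15.0%. Among the 12 in the other direction were Gm2619 (6.06% and 45.0%), the chromatin remodelling gene Arid1a (11 of 66 and 11 of 20 cells), the interferon-induced GTPase genes Gbp4 (18 of 66 and 11 of 20 cells) and Gbp11 (4.55% and 35.0%) and the splicing factor gene Prpf38b (19.7% and 50.0%). Of all 20935 genes, 2.8% stood at least 20 points higher and 0.43% lower in fibroblast-like cells than in remaining members.

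Interferon-stimulated genes were frequent in members of both kinds. Of 14 type I interferon-stimulated genes 8 stood at least 20 points above other cells in fibroblast-like cells (beside 4.51% of all genes) and 8 in remaining members (beside 2.37%). Within the fibroblast-like set the count was 8 in high-collagen cells (beside 6.67%) and 2 in trace-collagen cells (beside 3.1%). Ifitm3, an antiviral membrane protein, was found in 89.4%, 90.0% and 68.4% of fibroblast-like, remaining and other cells, and Bst2 (tetherin) in 78.8%, 80.0% and 53.1%. Over the plates Ifitm3 had 1883 to 3444 CPM in fibroblast-like cells (5 plates), 2514 to 3608 CPM in remaining members (4 plates) and 685 to 2587 CPM in other cells (14 plates), and these ranges overlapped. Of 17 immediate-early and heat-shock genes, which tissue digestion can induce, 4 stood higher in fibroblast-like cells and 8 in remaining members, beside the same 4.51% and 2.37%. In cells thinned to 50000 UMIs both remaining-member counts, interferon and heat-shock, were 4 (beside 1.93% of all genes). Single plates also set these counts. The interferon count was 5 in fibroblast-like cells without Irf1_dXCR1 replicate 5 and 5 in remaining members without Irf1_dXCR1 replicate 4, and the heat-shock count in remaining members was 5 without Irf1_FF replicate 4 or Irf1_dXCR1 replicate 1.

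Members were deeper than other cells. Fibroblast-like cells had a median of 201258 UMIs and 2381.5 genes, remaining members 157812 UMIs and 1800.5 genes, and other cells 140145 UMIs and 1505 genes. Plates held 2810321 to 10120557 UMIs in all. With each cell thinned to 50000 UMIs (60 of 66, 18 of 20 and 375 of 469 cells were deep enough), the median genes were 2261.5, 1599 and 1517. In thinned cells 20 of 23 matrix genes and 17 of 20 fibroblast genes stood at least 20 points higher in fibroblast-like cells (beside 4.05% of all genes), and 10 of 16 leukocyte genes lower (beside 0.654%). Mitochondrial and spike-in UMIs made up a median of 1.16% and 2.96% in fibroblast-like cells, 1.45% and 4.11% in remaining members and 1.16% and 4.35% in other cells.

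Xist, the noncoding RNA of the inactive X chromosome (chromosome X, 103460366 to 103483254), was compared because the hosts were female and the YUMM1.7 line came from a male mouse. It had a UMI in 17 of 66 fibroblast-like cells (25.8%), 3 of 20 remaining members (15.0%) and 66 of 469 other cells (14.1%). By plate, remaining members and fibroblast-like cells had mean shares of 19.0% and 20.2% in 7 plates (difference -1.11 points, SD 29.0; exact sign-flip permutation p = 0.875, adjusted over 3 pairs 0.875). Remaining members and other cells had 19.0% and 17.3% in the same 7 plates (exact permutation p = 0.875, adjusted 0.875), and fibroblast-like and other cells 17.6% and 16.04% in 8 plates (exact permutation p = 0.578, adjusted 0.875). No difference was larger than the spread between plates, at 2 to 23 members of a class per plate. The direction of all 3 differences depended on the plates used. The 3 remaining members with Xist were among the 7 with none of the 5 non-matrix genes. Xist was at 0 of 8 Tfap2b-positive cells, which allows a share of up to 37.5%. The planned comparison of 4 Y-linked genes was not run, since 0 of the 4 are columns of the table used here.

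The protein stainings recorded during the sort were not used by the rule. They covered 458 cells, 80 of them members, and 8 plates of the Irf1 experiment had at least 2 members and 2 other cells with a recording. Values are on the arcsinh scale as the authors deposited them, so each unit is about an e-fold step at high signal. Forward scatter, which follows cell size, was higher in members than in other cells in 8 of 8 plates, by 0.247 ± 0.147 (mean ± SD of paired differences of plate medians). CD11b was higher in 8 of 8 plates, by 0.873 ± 0.502, and the channel labelled LIVE in 8 of 8, by 0.662 ± 0.443 (two-sided exact sign-flip permutation p = 0.00781 for each of the 3, the smallest that 8 plates allow; adjusted over 44 tests 0.0859). MHC class II was lower in 7 of 8 plates, by 1.03 ± 0.676 (exact permutation p = 0.0156, adjusted 0.0859). Side scatter was higher in 7 of 8, by 0.432 ± 0.307 (exact permutation p = 0.0234, adjusted 0.106). Its median in members was the same 13.1698 in Irf1_FF replicate 1 and Irf1_dXCR1 replicates 2 and 3, as was the upper quartile of high-collagen cells. Whether the recording was cut at that value was not tested, so the difference and its spread may be understated. CD11c was lower in 6 of 8, with a mean difference of -1.02 ± 1.18 (exact permutation p = 0.0469, adjusted 0.147). Of all 44 comparisons, 14 had an unadjusted p under 0.05 and 0 passed after adjustment. The smallest p that the exact permutation test could give was 0.0156 over 7 plates and 0.0312 over 6. Not passing therefore does not show that members and other cells stained alike.

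The 2 subsets were also compared with other cells one at a time. In 7 plates the median LIVE signal of fibroblast-like cells stood above that of other cells in 7 of 7 (0.755 ± 0.363), as did CD64, an Fc receptor of macrophages (1.55 ± 0.888), and forward scatter (0.275 ± 0.142), and MHC class II stood below in 7 of 7 (-1.08 ± 0.740). Each of these 4 had an exact permutation p of 0.0156, the smallest that 7 plates allow, and an adjusted p of 0.0859. Their CD11b was higher in 6 of 7 plates, with a mean difference of 0.312 ± 2.58 (exact permutation p = 0.859, adjusted 0.9003): in Irf1_dXCR1 replicate 1 it was 1.296 in 4 fibroblast-like cells and 6.74 in other cells. CD11c differed by -1.17 ± 1.16 in fibroblast-like cells (lower in 5 of 7 plates; exact permutation p = 0.0625, adjusted 0.153) and by -1.20 ± 1.13 in remaining members (lower in 5 of 6; exact permutation p = 0.0938, adjusted 0.172). In 6 plates the remaining members had less CD45 than other cells in 6 of 6 (-0.568 ± 0.452). The exact permutation p was 0.0312, the smallest that 6 plates allow, and the adjusted p 0.106. Forward scatter of the remaining members differed by 0.0652 ± 0.210 (higher in 3 of 6). The CD45 difference of all members was -0.173 ± 0.506 and that of XCR1 -0.656 ± 0.885, both smaller than their spread. Over cells, with no test, median MHC class II was 7.98 in high-collagen, 9.37 in trace-collagen, 7.78 in Tfap2b-positive and 9.09 in other cells. Median CD11c was 7.75, 10.1, 7.80 and 9.62, and median CD45 9.95, 10.6, 9.40 and 10.4. The trace-collagen cells stood with the other cells in all 3 stainings, above their medians.

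**Figure D5:**
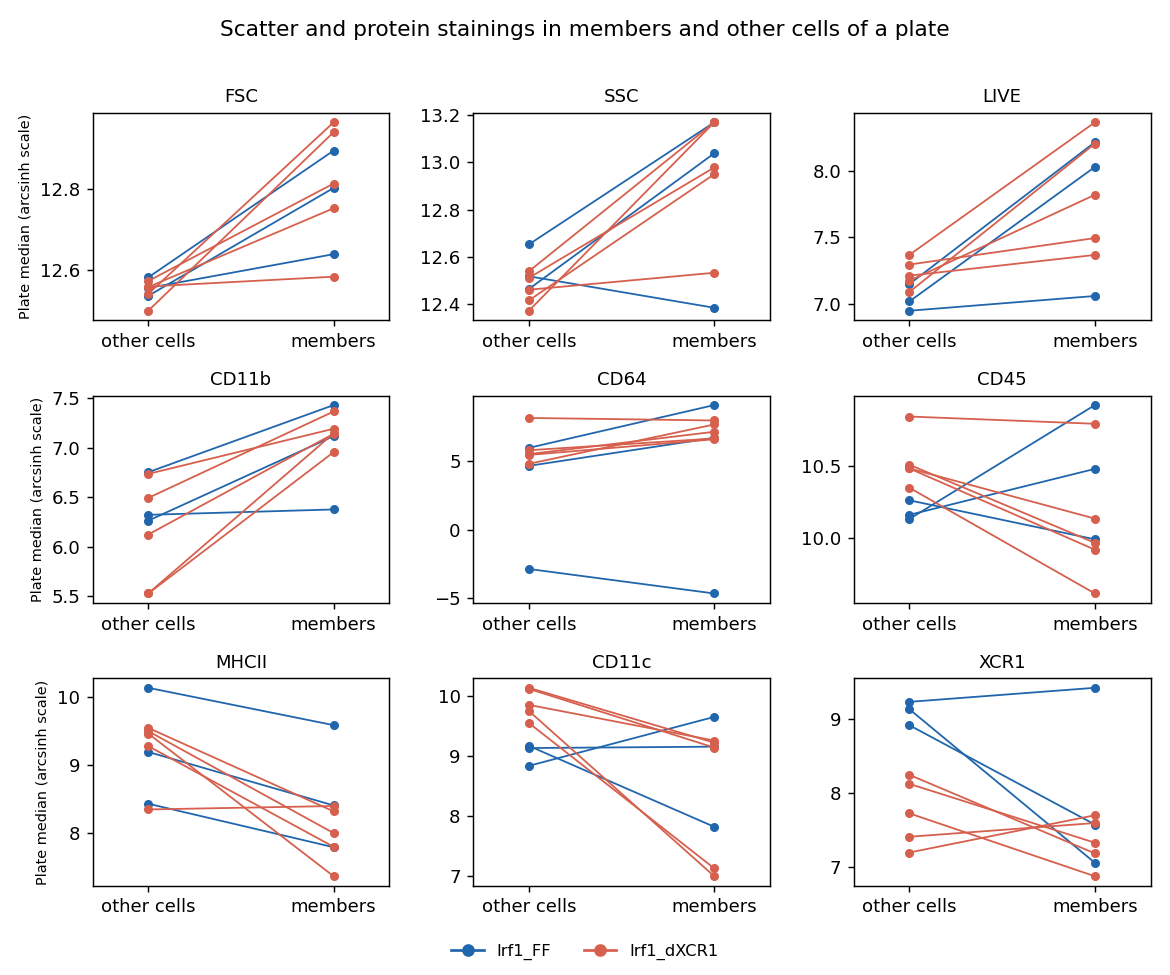
Median scatter or staining (arcsinh scale) of other cells and members in each of 8 plates, joined by a line and coloured by genotype, 1 panel per channel; axes differ between panels and do not start at 0. Forward scatter (FSC), LIVE and CD11b are higher in members in all 8 plates, and MHC class II is lower in 7.

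The genotype was compared within members on UMI counts summed per plate, for the plates with at least 3 members: Irf1_FF replicates 1 and 4 and Irf1_dXCR1 replicates 1, 2, 4 and 5. By edgeR's quasi-likelihood test 0 of 9751 genes passed an adjusted p of 0.05 (background 0%), and 250 had an unadjusted p under 0.05. In simulated counts with the spread between plates estimated here, that test called 0% of genes changed 8-fold and 14% of those changed 64-fold. A count of 0 genes therefore does not show that the groups were alike. DESeq2 called 51 genes, 40 higher and 11 lower in Irf1_dXCR1. Irf1, the targeted gene, had 191 and 107 CPM in members of the Irf1_FF plates and 306, 222, 63.8 and 321 CPM in those of the Irf1_dXCR1 plates, so the groups overlapped (log2 fold change 0.61 ± 1.24 (SE), adjusted p = 1.00 by edgeR's test). For Irf1 as for Cdkn2a, the UMIs tag the 5′ end, so they do not show whether the targeted part of the transcript was intact. Col1a1 had 2937 and 5290 CPM in the Irf1_FF plates and 46.0, 1327, 978 and 2573 CPM in the Irf1_dXCR1 plates. All 4 of the latter lay below both controls, and the fitted log2 fold change was -1.74 ± 0.85 (adjusted p = 1.00). Tfap2b had 0 and 19.2 CPM against 163, 314, 173 and 20.7 CPM (log2 fold change 4.14 ± 2.54, adjusted p = 1.00). Col1a1 and Tfap2b are genes of the rule that chose the cells, so their values here are descriptions. Col1a1 counts are also limited by the number of different UMIs, with 900 or more in 27 of the 45 high-collagen cells. High-collagen cells were themselves divided off by their collagen level. In the same plates 33 of 37 members were fibroblast-like in Irf1_FF and 26 of 39 in Irf1_dXCR1. The part of this makeup in the differences of Col1a1 and Tfap2b was not tested. For Col1a1 the log2 fold change was -1.51 ± 1.35 over fibroblast-like cells alone (2 against 3 plates) and -0.67 ± 0.32 over high-collagen cells alone (2 against 2 plates), each with an adjusted p of 1.00 by edgeR's test.

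No list had a member past the threshold in that comparison. The median log2 fold change of all tested genes was -0.33. The matrix list had a median of -1.04 (23 genes tested), the fibroblast list -1.14 (19), the chemokine list -1.78 (13), the leukocyte list 0.73 (15), the type I interferon list 0.08 (14) and the G2 and M phase list 6.21 (16). The G2 and M phase genes were found in few members. Over the 20 listed, the median share with a UMI was 1.52% of fibroblast-like cells and 12.5% of remaining members. The value of 6.21 thus rests on few cells and on 2 control plates, and the part of the makeup of members in it was not tested. Mki67, a marker of cycling cells named after its values were seen, had a UMI in 4 of 20 remaining members and 1 of 66 fibroblast-like cells.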

How the data were processed

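The deposited table holds UMI counts of single cells by gene, as whole numbers, with no normalization by the authors. Per the labels' protocols, cells were sorted singly into plates, spike-in RNA was in the lysis mix, and transcripts were tagged at the 5′ end; the submitters' processing notes name bcl2fastq, STAR 2.5.3a, HTSeq 0.9.1 and GRCm38. The deposited cell annotation gives, per the file headers, the fraction of mitochondrial and of spike-in UMIs of each cell (printed as a percent), age, genotype and the sort recordings, which the authors deposited as a score on the arcsinh scale. A recording of 0 in every channel was read as missing (97 cells). No source used here states filters on cells or compensation.

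Members and gene lists were chosen with earlier results of these data known. A plate, 1 tumour of 1 mouse, was the replicate. Shares were compared by exact permutation, Xist and stainings by exact sign-flip over plates with at least 2 cells of each class, two-sided, with Benjamini-Hochberg adjustment. Counts summed over members were tested with edgeR 4.0.16 (TMM, filterByExpr), with DESeq2 1.42.0 as an alternative. The edgeR test was tried on simulated counts with 200 changed genes. At the dispersion (spread between plates) estimated from the data it called 0% of genes changed 8-fold and 14% of those changed 64-fold. At a dispersion of 0.2 it called 96% and 100%. A share of cells with a UMI was called higher or lower at 20 points, with no test. For thinning, cells under 50000 UMIs were left out. Doublet calling was not used, since cells were sorted singly. Named were the genes of the rule, Xist, up to 4 genes of each list by share of members, and the 12 genes outside the lists that differed most each way between the subsets; the text gives 9 of these 24. Irf1, Ptprc, Pdgfra, Lum, Thy1, Acta2, Tagln, Pax3 and Mki67 were added outside this rule, after their values were seen except Irf1, the targeted gene. Positions are from GENCODE M21 (GRCm38). Alternatives were other marker thresholds, cells with 500 or more genes, minimum cells per plate, ranks, other scaling, filters and subsets, and each plate left out.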

Additional observations from a re-analysis of the deposited data

Results flagged for a closer look

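A plate was marked where its share of cells stood apart from the others of its group by Dixon's 95% criterion, over 9 sets of plate shares; chance marks about 1 in 20 sets. Irf1_dXCR1 replicate 5 had 30.6% of its cells as fibroblast-like, against 5.41 to 10.2% in the other 4 plates of its group. Ikbkb_dXCR1 replicate 4 had 3.92% of its cells as remaining members (2 of 51), against 0 in the other 3 plates. Those 2 cells had none of Tfap2b, Nradd, Tm4sf1, Nr2f2 and Cavin3. With 0 in the other 3 plates, any share above 0 would have been marked. The rate of 1 in 20 does not hold for such a set, and its mark carries no weight. Irf1_FF replicate 1, with 58.1% of its cells as members, was not marked, because its group runs from 0 to 58.1%.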

How the results depend on the processing

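The share of members per plate kept its direction under other marker thresholds, with members that carried Ptprc or trace collagen left out, and in cells with 500 or more genes. Leaving out 1 plate moved the member difference between -11.9 and 7.48 percentage points and the fibroblast-like one between -13.5 and 4.37; both turned positive without Irf1_FF replicate 1. For Xist, remaining members against other cells turned to -12.6 points with 2 or more UMIs per marker gene, -17.6 with 4 of the 10 genes and -9.08 with at least 3 cells of each class per plate. Leaving out 1 plate gave -5.20 to 6.88 for that pair, -9.63 to 3.71 for remaining against fibroblast-like and -0.203 to 2.88 for fibroblast-like against other, so no direction is given for Xist. For stainings, 0 of 44 comparisons passed in each alternative run, and CD11b of fibroblast-like against other cells turned to -0.0817 with at least 3 cells per class and plate. For the genotype, 51 genes were called by DESeq2, 3 without the filter on low counts, and 0 to 8 with 1 plate left out; the 8 arose without Irf1_FF replicate 1, which leaves 1 control plate assumed to vary like the others. Upper-quartile scaling, plates with 5 or more members, fibroblast-like cells alone and, added after seeing the data, high-collagen cells alone gave 0. The cause of these changes was not tested. No paired analysis was possible because replicate numbers only name plates in accession order. The Y-linked comparison was not run, nor was the genotype fit on remaining members alone, since no Irf1_FF plate held 3 of them. Depth limits single cells: 94 of 469 other and 8 of 86 member cells had under 50000 UMIs.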
